A study of Caenorhabditis elegans with 6 samples.

Results

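Transcript levels of the 9 genes met-2, lin-65, arle-14, set-25, set-32, lin-61, hpl-1, hpl-2 and cec-4 were compared between spr-5; met-2 and N2 larvae of the nematode Caenorhabditis elegans. These genes write histone H3 lysine 9 (H3K9) methylation, assist its writers, or read the mark. Members were found as the records (RefSeq transcript entries, each counted on its own) that a RefSeq gene table names with these symbols, and 15 of the 50832 records belonged to them. The libraries were made from total RNA of whole starved first-stage (L1) larvae, with 3 of the spr-5; met-2 larvae (the double mutant), which carry the allele by101 of spr-5 (chromosome I) and n4256 of met-2 (chromosome III), and 3 of the wild-type strain N2. All animals were grown at 20 °C on the bacterial strain HT115, and the column names of all 6 count tables also carry L4440, the name of a feeding vector that the other labels do not give. The stated purpose was to determine how gene expression of the double mutant L1 progeny differs from that of N2.

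H3K9 methylation marks chromatin that is kept silent. MET-2, the worm relative of SETDB1, adds the mono- and dimethyl marks, and works in the nucleus with LIN-65 and ARLE-14. SET-25 adds the trimethyl mark, and SET-32 is a SET domain protein linked to the same mark and to inherited small RNA silencing in the germline. The marks are read by the HP1 proteins HPL-1 and HPL-2, by the MBT domain protein LIN-61, and by CEC-4, a chromodomain protein that holds marked chromatin at the nuclear envelope.

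Total counts were 17062557 to 25368364 in the spr-5; met-2 libraries and 20010959 to 22014739 in the N2 libraries. The number of records tested was 14557. Levels below are CPM, read counts scaled to library size, after TMM scaling. Differences were tested two-sided by edgeR's quasi-likelihood method, p-values were adjusted by Benjamini-Hochberg across the whole set of tested records, and the threshold was 0.05. Whether replicates are separate cultures is not in the labels, and the spread behind the p-values may thus be technical. In RNA of whole larvae, fewer cells of a type and less RNA per cell cannot be told apart. The other mutated gene, spr-5, a demethylase gene of the LSD1 family, had 129, 116 and 123 CPM in the double mutant and 66.2, 47.7 and 47.5 CPM in N2. Its record rose 2.28-fold (log2 fold change 1.19 ± 0.16, SE; edgeR adjusted p = 0.00132), and the call held in all 14 alternative settings. As neither mutated transcript was lost, and a count over a whole record is blind to the position of an allele's lesion, the strain labels stand unchecked by these counts.

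Not every member could be read equally well. Of the 15 records 6 had no count in any library, and 8 were tested, 1 for each gene but arle-14. Every tested member record had more than 10 counts in each of the 6 libraries, so none was tested through its level in 1 group alone. Genes with 1 record (met-2, set-25, set-32, hpl-1 and cec-4) have no second record of their own to share reads with. Some exonic bases of set-25 and cec-4 do lie opposite exons of other genes, as given below. Genes with several records held counts in 1 record almost alone. For hpl-2 that record had 99.3% to 100% of the gene's counts in spr-5; met-2 libraries and 99.5% to 100% in N2 libraries, a mean difference of -0.0518 percentage points (exact two-sided permutation test, p = 1). By the Ensembl annotation, the exonic bases found in a single coding isoform numbered 478 of 2615 for lin-65, 512 of 1988 for lin-61, 299 of 1286 for hpl-2 and 56 of 871 for arle-14. How reads shared between records were treated is not given in the sources used here, so values for these 4 genes describe the record that has counts, not the whole gene.

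**Figure D1:**
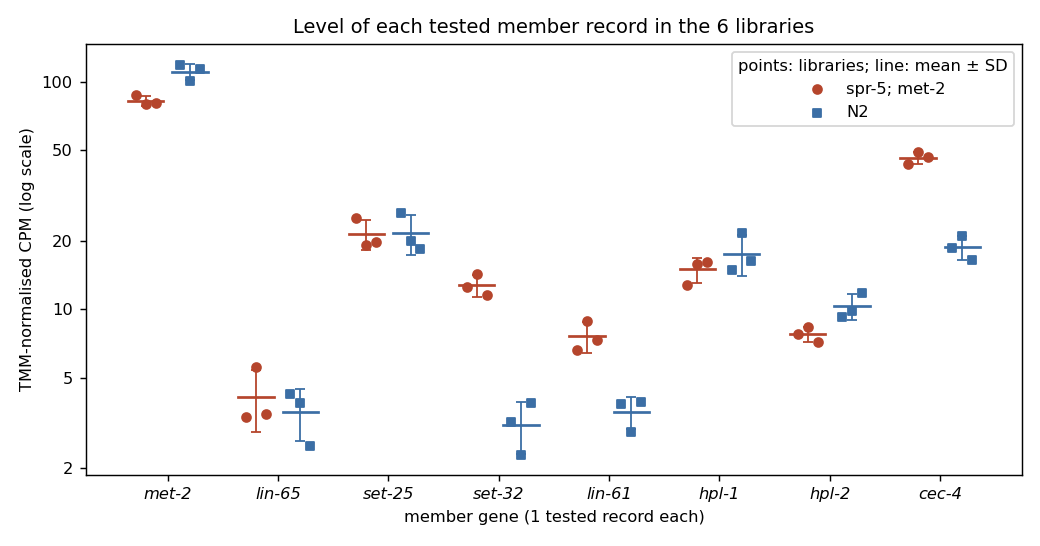
TMM-normalised CPM on a log axis for the 8 tested member records, with 1 point for each library, spr-5; met-2 left of N2, and the mean ± SD of 3. The set-32, lin-61 and cec-4 points of spr-5; met-2 all lie above those of N2, and the met-2 and hpl-2 points all lie below.

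Among the writers, met-2 had a slightly lower level in the double mutant after TMM scaling. As met-2 is itself mutated in this strain, a lower transcript level and reads altered by its allele cannot be told apart. The met-2 record (NM_066447, chromosome III) had 87.3, 79.8 and 80.9 CPM in the double mutant, against 118.6, 101 and 114 CPM in N2. All mutant libraries were below all wild-type libraries, and at 82.6 ± 4.03 CPM in the double mutant the mean was 0.744 times that of N2, 111 ± 9.35 CPM (SD, n = 3 each). On the log2 scale the difference was -0.43 with an SE of 0.11 (adjusted p = 0.0290 in edgeR), and the fold had a 95% interval from 0.620 to 0.894. The call ended when spr-5; met-2 replicate 2 (edgeR adjusted p = 0.0976), spr-5; met-2 replicate 3 (0.127) or N2 replicate 3 (0.0572) was left out. It also ended with no filter on low counts (0.0716) and with libraries scaled by their totals alone, where the log2 fold change was -0.20 (0.286) and the median of all records moved up to 0.21. Relative to that median the met-2 difference was -0.41, and it was -0.42 relative to the median under TMM scaling.

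The partners of MET-2 gave little or no signal. The counted record of lin-65 (NM_170802, chromosome I) had 3.36, 5.57 and 3.45 CPM in the double mutant, against 4.23, 3.86 and 2.50 CPM in N2. The groups overlapped, and replicate 2 was the highest of the mutant libraries while replicate 3 was the lowest of N2. The log2 fold change of 0.22 ± 0.31 (SE) did not pass (edgeR adjusted p = 0.646), and its 95% interval, from 0.712-fold to 1.91-fold, holds both a fall and a rise. Both records of arle-14 (NM_001038254 and NM_001038255, chromosome III) are listed at 0 in all 6 libraries. For a record at 0, 3 counts correspond to 0.107 to 0.165 CPM in the double mutant and 0.148 to 0.165 CPM in N2, a limit on the reads assigned to the record that covers counting error only and not the level of the gene.

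Of the writers linked to the trimethyl mark, set-25 did not pass the test and set-32 rose. The set-25 record (NM_067337, chromosome III) had 25.1, 19.2 and 19.8 CPM in the double mutant, against 26.4, 19.9 and 18.4 CPM in N2. Replicate 1 was the highest library of each group and the groups overlapped throughout. The difference was -0.01 ± 0.19 on the log2 scale (SE; adjusted p = 0.974 in edgeR), and the 95% interval of the fold was 0.732 to 1.35. By the same annotation 85 of its 2800 exonic bases lie opposite exons of other genes, among them the syntaxin gene unc-64.

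Of the tested members, set-32 had the largest log2 rise. Its record (NM_060128, chromosome I) had 12.5, 14.3 and 11.5 CPM in the double mutant, against 3.18, 2.28 and 3.85 CPM in N2, from 242, 259 and 323 counts in the double mutant and 58, 46 and 77 counts in N2. The lowest mutant library was well above the highest of N2. The difference was 4.10-fold, with a 95% interval from 2.79 to 6.03 (log2 fold change 2.04 ± 0.24, SE; edgeR adjusted p = 0.000788). Its call held in all 14 alternatives, which gave log2 fold changes of 1.85 to 2.25. Germ cell marker genes moved in the same direction in the same libraries: 9 of 10 tested rose and 0 fell. Those that rose include deps-1, pgl-3 and rec-8, which passed the count filter through the double mutant alone. Of all tested named genes 14.5% rose and 11.9% fell. The germ cell markers summed to 1441 to 1540 CPM in the double mutant and 96.8 to 147 CPM in N2. Their part in the rise of set-32, and of lin-61 and cec-4 below, was not tested.

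Of the readers outside the chromodomain group, lin-61 rose. The counted record (NM_001129029, chromosome I) had 6.61, 8.87 and 7.29 CPM in the double mutant, against 3.84, 2.87 and 3.90 CPM in N2. The groups did not overlap, and the difference was 2.14-fold, with a 95% interval from 1.49 to 3.08 (log2 fold change 1.1 ± 0.23, SE; edgeR adjusted p = 0.0102). The other lin-61 record (NM_059649) is listed at 0 in every library, so the rise is that of reads given to 1 of 2 records. The call held in all 14 alternatives, with adjusted p of 0.000239 to 0.0416.

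Neither HP1 gene passed the test. The hpl-1 record (NM_077798, chromosome X) had 12.8, 15.9 and 16.2 CPM in the double mutant, against 14.8, 21.6 and 16.3 CPM in N2. These groups overlapped, and the difference was -0.23 ± 0.19 on the log2 scale (SE; adjusted p = 0.422 in edgeR), with a 95% interval from 0.625-fold to 1.16-fold. The main hpl-2 record (NM_001027481, chromosome III) had 7.75, 8.32 and 7.14 CPM in the double mutant, against 9.22, 9.80 and 11.8 CPM in N2. Here all mutant libraries were below all N2 libraries, yet the log2 fold change of -0.41 ± 0.18 (SE) missed the threshold (edgeR adjusted p = 0.139; unadjusted p = 0.0541), with a 95% interval from 0.562-fold to 1.01-fold. That difference is about as large as that of met-2, which has many more counts, 11885 in all libraries against 1104 for this hpl-2 record. A further hpl-2 record (NM_001027483) had 1 count in 1 library of each group, and NM_001027482 had none.

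The anchoring gene cec-4 rose. Its record (NM_068830, chromosome IV) had 43.6, 48.9 and 46.6 CPM in the double mutant, against 18.6, 21.0 and 16.5 CPM in N2. The groups lay far apart, at 46.4 ± 2.68 CPM in the double mutant and 18.7 ± 2.24 CPM in N2 (SD, n = 3 each), a 2.48-fold difference with a 95% interval from 1.98 to 3.11. On the log2 scale this was 1.31 ± 0.14 (SE; adjusted p = 0.000480 in edgeR), and the call held in all 14 alternatives at 1.21 to 1.53. In the annotation 141 of its 1119 exonic bases lie opposite exons of F32E10.5, a gene on the other strand, named here after its value was seen. F32E10.5 had 24.4, 25.7 and 24.7 CPM in the double mutant, against 10.3, 9.60 and 12.4 CPM in N2, which is higher by 1.21 ± 0.15 on the log2 scale (SE; adjusted p = 0.00117 in edgeR). Whether strand was used in counting is not given in the sources used here, so reads from the overlap of cec-4 and F32E10.5 cannot be told apart.

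**Figure D2:**
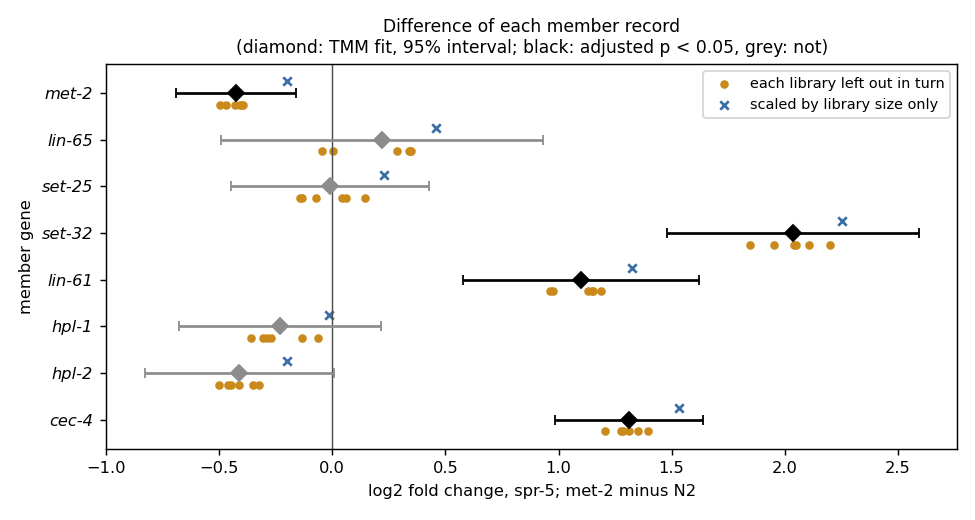
Log2 fold change of each tested member record (diamonds, spr-5; met-2 minus N2, with 95% intervals), the values with each library left out in turn (dots) and the value with libraries scaled by their totals only (crosses). The set-32, cec-4 and lin-61 intervals lie above 0 and that of met-2 below, and the crosses stand to the right of the diamonds.

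Over the 8 tested member records, 3 rose and 1 fell, which is 50% of them, where 25.9% of all tested records passed the threshold in either direction, 14.3% rising and 11.7% falling. The record that fell was that of met-2, a gene mutated in this strain. Rises made up 55% of all calls, and 77.7% with libraries scaled by their totals alone. The groups did not overlap in 5 of the 8, against 43.6% of all tested records. The median log2 fold change was 0.11 for the members and -0.01 for all tested records. Among all tested records the log2 fold change of set-32 stood at percentile 94.2, that of cec-4 at 90.8, lin-61 at 89.0, lin-65 at 64.3, set-25 at 49.9, hpl-1 at 34.3, hpl-2 at 23.96 and met-2 at 23.2. The coefficient of variation of the members was 4.88% to 30.3% in the double mutant and 8.42% to 25.8% in N2, where the medians of all tested records were 15.1% and 19.9% for the same groups. In both groups met-2 varied least and lin-65 most.

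The authors' deposited table gave the same directions for the 8 records. In the authors' deposited table the log2 fold changes were 1.99 ± 0.26 for set-32, 1.30 ± 0.18 for cec-4, 1.08 ± 0.26 for lin-61 and -0.41 ± 0.15 for met-2 (the authors' standard errors), all with an adjusted p below the threshold, the highest being 0.0235 for met-2. For hpl-2 the authors' deposited table gave -0.39 with an adjusted p of 0.180.

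Levels per length could be compared for the 5 genes with 1 record. In spr-5; met-2 the level in CPM per kilobase of exon was highest for cec-4, at 41.4 ± 2.40, followed by met-2 at 20.0 ± 0.976, hpl-1 at 18.6 ± 2.32, set-32 at 7.71 ± 0.854 and set-25 at 7.64 ± 1.15 (SD, n = 3). In N2 the order began with met-2 at 26.9 ± 2.26, followed by hpl-1 at 21.9 ± 4.43, cec-4 at 16.7 ± 2.0, set-25 at 7.70 ± 1.53 and set-32 at 1.88 ± 0.478 (SD, n = 3). Neighbours whose libraries overlapped were met-2 with hpl-1 and set-32 with set-25 in the double mutant, and met-2 with hpl-1 and hpl-1 with cec-4 in N2. By level, cec-4 was thus the first of the 5 in the double mutant and the third in N2, and set-32 overlapped with set-25 in the double mutant and was below it in every N2 library. The lengths include the 141 bases of cec-4 and the 85 of set-25 that lie opposite exons of other genes. How reads there were counted is not given.

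Ratios between members within 1 library do not depend on how libraries are scaled. The count of set-32 was 0.498, 0.742 and 0.579 times that of set-25 in the double mutant, against 0.121, 0.114 and 0.210 times in N2. These ranges did not overlap, and the mean log2 ratio was higher by 2.07 in the double mutant. The count of cec-4 was 5.63, 5.84 and 6.52 times that of hpl-2 in the double mutant, against 2.01, 2.13 and 1.40 times in N2, a difference of 1.72 on the log2 scale. Relative to the partner and to the next writer, met-2 was lower: the mean log2 ratio of met-2 to lin-65 was 4.36 in the double mutant and 5.01 in N2, and that of met-2 to set-25 was 1.96 in the double mutant and 2.38 in N2. The met-2 to lin-65 difference of -0.64 shrank to -0.39 when N2 replicate 3 was left out, and to -0.38 when replicate 2 of the double mutant was. The groups did not overlap in these ratios either, but for met-2 to lin-65 the highest mutant library, at a log2 ratio of 4.7004, was barely below the lowest N2 library, at 4.704. The ratio of hpl-1 to hpl-2 did overlap, with mean log2 ratios of 0.94 in the double mutant and 0.76 in N2 (exact two-sided permutation test, p = 0.4; adjusted p = 0.4). For the other 4 ratios the exact two-sided permutation test gave p = 0.1 (adjusted over 5 ratios, 0.125), and 0.1 is the smallest p that 3 against 3 libraries allow, so none could pass. A ratio of met-2 to arle-14 could not be formed.

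**Figure D3:**
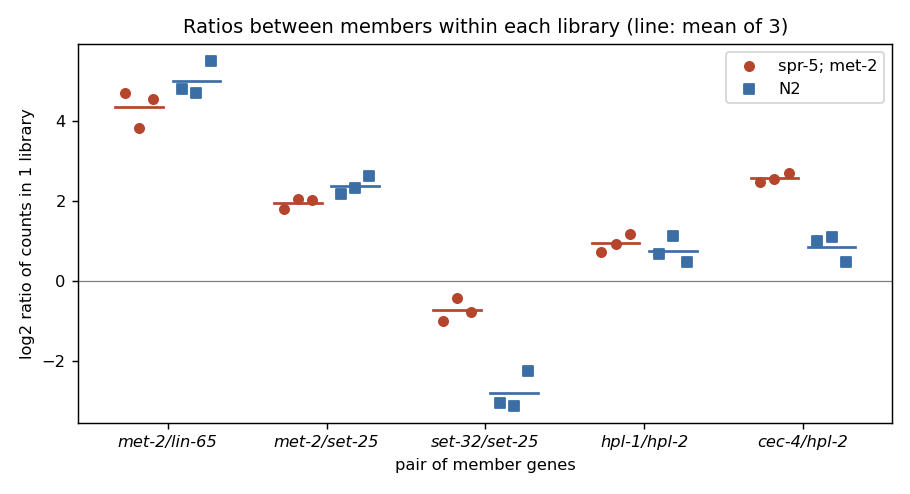
Log2 ratio of the counts of 2 member genes in each library, spr-5; met-2 left of N2, with the mean of 3 as a line. The groups are separate for set-32/set-25, cec-4/hpl-2, met-2/set-25 and met-2/lin-65 and overlap for hpl-1/hpl-2.

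Patterns most like those of met-2 and set-32 were sought by the distance between log2 CPM profiles over the 6 libraries, each centred on its own mean, among 12786 tested records of other genes. Nearest to met-2 were hrde-2, a nuclear RNAi gene (distance 0.0580), cha-1, the choline acetyltransferase gene (0.0859), and nspg-10 (0.0937), where the median distance was 0.898. Nearest to set-32 were tsp-2, a tetraspanin gene (0.268), the chemoreceptor gene sre-21 (0.273) and the intermediate filament gene ifd-1 (0.293), with a median of 2.48. The nearest genes of set-32 had log2 fold changes of 1.75, 2.99 and 1.88. Of these sre-21 was close to the floor, at a mean of 2.08 CPM in the double mutant and 0.258 CPM in N2. At such levels the pseudocount of 0.5 CPM shrinks the difference that enters its distance.

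Other genes of the pathway were followed as 6 lists of 39 genes, of which 31 had a matched record and 27 a tested one. Of the 27, 10 rose and 1 fell (40.7%), where 26.4% of all tested named genes passed, 14.5% rising and 11.9% falling. Their median log2 fold change was 0.38 against -0.01 for all tested named genes. The same shares of all tested named genes apply to each list below.

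The nuclear RNAi genes, whose products carry small RNA signals to chromatin and lead to H3K9 trimethylation, held the largest difference. Of 7 tested, 3 rose and 0 fell, with a median of 0.41 on the log2 scale. The germline Argonaute gene hrde-1 had 262, 364 and 237 CPM in the double mutant, against 34.3, 20.5 and 24.96 CPM in N2, and rose by 3.44 ± 0.25 on the log2 scale (SE; adjusted p = 6.97e-05 in edgeR). For nrde-2 the log2 rise was 1.55 ± 0.11 and for hrde-4 it was 1.75 ± 0.35 (SE). The hrde-4 record had 21, 26 and 28 counts in the double mutant and 6, 7 and 7 counts in N2. As its N2 counts are below the filter's minimum of 10, hrde-4 was tested through its level in the double mutant alone. Its call is among the rises counted for this list and for the 27 genes. The somatic Argonaute gene nrde-3 had 54.03 ± 6.19 CPM in the double mutant and 48.8 ± 6.24 CPM in N2 and did not pass (edgeR adjusted p = 0.509). The germ cell markers that rose in the same libraries (9 of 10 tested, against 14.5% of all tested named genes) moved with hrde-1 and with morc-1 below. They include deps-1, pgl-3 and rec-8, which passed the count filter through the double mutant alone. The median log2 fold change of the marker list was 3.51, and the part of the germ cell markers in the rises was not tested.

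Among 7 tested chromodomain genes of the cec family other than cec-4, 3 rose and 1 fell, with a median of 0.27. The log2 fold change was 1.56 ± 0.17 for cec-8, 1.37 ± 0.29 for cec-7 and 1.15 ± 0.27 for cec-2 (SE, edgeR adjusted p = 0.000456, 0.0110 and 0.0182). Further records of cec-7 and cec-2 are listed at 0, so the rises of these genes are those of reads given to 1 record each. The abundant gene cec-1, a reader of methylated H3 lysine 27, fell to 182 ± 10.4 CPM in the double mutant, against 326 ± 9.76 CPM in N2 (SD, n = 3 each; edgeR adjusted p = 0.00121). The H3K9 reader gene cec-3 was at 0.05 ± 0.15 on the log2 scale (edgeR adjusted p = 0.837). The call of cec-2 ended without spr-5; met-2 replicate 1 (0.0585) or 2 (0.0529) and without N2 replicate 3 (0.0582).

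The co-repressor partner list held lin-13, a zinc finger gene whose product works with HPL-2, and morc-1, a gene of germline chromatin compaction. Of 5 tested, 2 rose and 0 fell, with a median of 0.50. The morc-1 record had 133 ± 10.4 CPM in the double mutant and 26.5 ± 2.61 CPM in N2 (SD, n = 3 each). It rose by 2.33 ± 0.13 on the log2 scale (SE; adjusted p = 2.11e-05 in edgeR), and lin-13 by 1.07 ± 0.14. All records of smrc-1 are listed at 0, which limits the reads assigned to them and not the level of the gene.

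In the small lists that follow, 1 call says little about a list, as 14.5% of all tested named genes rose. Of 4 tested SET domain genes 1 rose, set-21, at 0.74 ± 0.22 (SE, edgeR adjusted p = 0.0382), with a median of 0.56, and 5 more had no matched record. Of 3 tested nuclear envelope and anchoring genes 1 rose, lem-2, which encodes a LEM domain protein of the inner nuclear membrane, at 0.72 ± 0.21 (SE, edgeR adjusted p = 0.0363), with a median of 0.18. Both calls ended without N2 replicate 3 (edgeR adjusted p = 0.101 for set-21 and 0.0834 for lem-2), as they did without spr-5; met-2 replicate 2, spr-5; met-2 replicate 3 or N2 replicate 2. The set-21 call also ended without spr-5; met-2 replicate 1. The 1 tested H3K9 demethylase gene, jmjd-2, had 68.9 ± 1.49 CPM in the double mutant and 78.9 ± 12.5 CPM in N2 (SD, n = 3 each) and did not pass (edgeR adjusted p = 0.342).

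**Figure D4:**
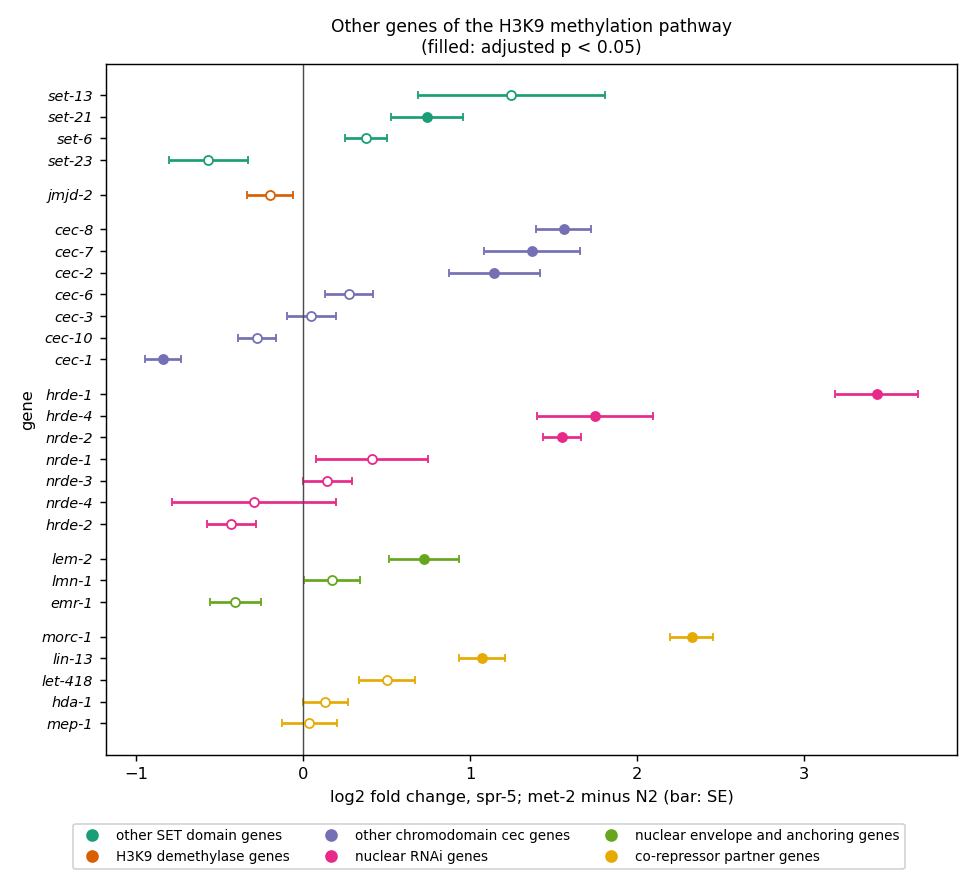
Log2 fold change with its SE of the 27 tested pathway genes outside the 9 members, by list, with filled points past the threshold. The largest value is that of hrde-1 at 3.44, and cec-1 at -0.84 is the only filled point below 0.

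Markers of 6 tissues were followed as well, where 14.5% of all tested named genes rose and 11.9% fell. Germ cell markers had a median log2 fold change of 3.51, above those of the other marker lists, and ranged from 0.86 for glh-4, which did not pass, to 4.68 for deps-1. In N2 deps-1 had 13, 6 and 7 counts, pgl-3 had 5, 8 and 5, and rec-8 had 11, 2 and 14. Each of these passed the count filter through the double mutant alone, and its log2 fold change rests on few N2 counts. The germ cell markers with the lowest adjusted p were the Piwi gene prg-1 at 4.52 ± 0.14, htp-3 at 3.10 ± 0.15, syp-1 at 3.37 ± 0.16 and glh-1 at 3.66 ± 0.22 (SE). The record of pgl-1 is listed at 0, which limits the reads assigned to it and not the level of the gene. Of 6 intestine markers 2 rose (elt-2 at 1.54 and ifb-2 at 0.83) and 2 fell (ges-1 at -1.41 and vha-6 at -0.71). Of 4 pharynx markers tnt-4 fell by 0.72 on the log2 scale. The call of ifb-2 ended whichever library was left out, and that of tnt-4 with any but N2 replicate 3 left out. None of 3 body wall muscle, 2 epidermis and 5 neuron markers passed in edgeR's test, in DESeq2 or at an unadjusted p below 0.05 (0 each), while 2 epidermis markers and 1 neuron marker passed in edgeR with the replicate block. The most abundant were at -0.07 ± 0.24 (unc-54), 0.69 ± 1.15 (dpy-10) and -0.01 ± 0.32 (egl-3). Replicates of dpy-10 spread widely, at 11.2, 56.7 and 24.6 CPM in the double mutant and 2.25, 52.5 and 2.25 CPM in N2. For dpy-7 the values were 4.75, 53.3 and 19.8 CPM in the double mutant and 2.31, 45.1 and 4.25 CPM in N2. With such a spread, not passing says little about these 2 epidermis genes. Further records of deps-1, ifb-2, tnt-4 and egl-3 are listed at 0, so their values describe 1 record each and not the whole gene. The epidermis genes lin-26, elt-1 and elt-3 had at most 12 counts in all libraries, and the body wall muscle gene hlh-1 had 1 count, in a spr-5; met-2 library. Each of these genes has several records, so the counts limit the reads assigned to records and not the level of the gene. No record was matched for the muscle gene unc-15 and the neuron gene snb-1. The summed level of the germ cell list is given beside set-32, and the part of tissue composition in the values of the members and of the pathway lists was not tested.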

How the data were processed

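RNA-seq libraries of 6 samples were grouped and numbered by their titles. The deposited tables hold raw counts per RefSeq record, made with featureCounts on build ce10 per the submitters' processing notes, from HISAT2 alignments per the file headers. Per the submitters' processing notes, FastQC, Trimmomatic and DESeq2 2.11.40.2 were also used. The strand setting is not given in the sources used here. In the authors' deposited table of the comparison each record has, per the file headers, a base mean signal (average of normalised counts), a log2 fold change with its standard error and Wald statistic (scores), and raw and adjusted p-values.

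Records were named through a RefSeq gene table of assembly WBcel235, which matched 46074 of 50832. The 4758 others stayed in library sizes and tests and held 12.8% to 13.4% of counts. Exonic lengths, isoforms and overlaps come from an Ensembl annotation of WBcel235. As this is not ce10, coordinates are left out. No member sequences are shown.

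Counts were filtered with edgeR's filterByExpr (minimum count 10, minimum total 15), scaled by TMM and tested with edgeR 4.0.16 in R 4.3.3, with group as the only term. The SE is the log2 fold change divided by the square root of F. The procedure was tested on simulated data. Alternatives were DESeq2's size factors, library size only, no filter, 1 CPM in 3 libraries, DESeq2 1.42.0, limma voom 3.58.1, the replicate number as a block, counts summed per gene, and each library left out. Same-numbered libraries deviated together (r over 14557 records of 0.49, 0.39 and 0.21 for numbers 1, 2 and 3). Between different numbers r was -0.39 to 0.084. Deviations were taken from each group's mean of 3, so these r values are not independent. Whether the numbers stand for shared batches is not in the labels, and the main fit treated the libraries as unpaired. Replicates of a group differed by more than sampling noise (chi-square per degree of freedom 22.7 to 54.6). The members, lists and tests were chosen with earlier results of these data known. Genes named are all members with a count, spr-5, up to 4 called genes of each list with the smallest adjusted p (the most abundant where none passed), and the 3 nearest patterns of met-2 and set-32 (pseudocount 0.5). Other list genes, such as nrde-3, cec-3 and smrc-1, were named after their values were seen.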

Additional observations from a re-analysis of the deposited data

How the results depend on the processing

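The calls of set-32, lin-61 and cec-4 held in all 14 alternatives run, and that of met-2 in 9 of the 14, with its direction kept in all. Of the 8 member records 3 or 4 were called in every alternative. Against 11 pathway genes called, 15 were called with library size only, 14 with DESeq2 and 8 to 12 with 1 library left out. The replicate block gave -0.42 ± 0.11 (SE) for met-2 (edgeR adjusted p = 0.0158), turned the call of 1 named gene, the epidermis marker dpy-10 (1.77, edgeR adjusted p = 0.0366), and called 14 pathway genes, 2755 rising and 2374 falling records; no paired test was run on the ratios. Scaling by library size only left 2881 rising and 828 falling records (77.7% of calls rising, against 55% with TMM). With 1 library left out there were 1410 to 2046 rising and 800 to 1803 falling records, against 2075 and 1698 with all. Falling records numbered 800 without spr-5; met-2 replicate 3, 918 without its replicate 2 and 1121 without N2 replicate 2.

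Some values that had not passed the test changed sign. With library size only, set-25 was at 0.23, jmjd-2 at 0.037, unc-54 at 0.18 and egl-3 at 0.25 on the log2 scale. With no filter set-25 was at 0.0068 and egl-3 at 0.0032, and egl-3 was at 0.055 with limma voom and 0.052 with the replicate block. With 1 library left out the ranges were -0.14 to 0.14 for set-25, -0.048 to 0.35 for lin-65, -0.27 to 0.19 for unc-54, -0.31 to 0.33 for egl-3 and -0.081 to 3.76 for dpy-10, whose value was 0.69 with all libraries and passed without N2 replicate 2 (3.76, edgeR adjusted p = 0.0158). The cause was not tested. Every log2 ratio between members kept its sign with 1 library left out and with the record with most counts in place of the sum. Of the tested members lin-65 had the fewest counts, 468 in all libraries, and arle-14, with none, could not be tested.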
